A study of Mus musculus with 5 samples.

Results

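The HoxA cluster was examined for binding of SUZ12 in mouse embryonic stem cells (ESCs) by chromatin immunoprecipitation and sequencing. SUZ12 belongs to the core of PRC2, a Polycomb complex that represses genes. The 9 genes described are Hoxa2, Hoxa3, Hoxa4, Hoxa5, Hoxa6, Hoxa7, Hoxa10, Hoxa11 and Hoxa13, out of 1935 genes with a SUZ12 peak within 5000 bp in at least 1 library. They were selected on the linked peaks themselves, each gene having a peak within 5000 bp in at least 1 of 4 deposited peak tables, so their listing is described here and not tested. The linked HoxA centres farthest from a start lay at -4974 bp (Hoxa13 in ΔCC) and 4959 bp (Hoxa5 in GFP), and none of the 9 genes had a pair beyond 5000 bp in the tables. Counts of HoxA genes and HoxA peaks below are over these 9 genes and do not cover the whole cluster. All cells were male 129SV ESCs with the Mbd3 gene knocked out, grown in medium with LIF. MBD3 is a component of NuRD, a complex that remodels and deacetylates chromatin. Per the labels, the cells of the 4 SUZ12 libraries bore deltaMBD (ΔMBD below), deltaCC (ΔCC), WT or GFP. In the design text these mutants are MBD3a proteins: ΔMBD lacks the MBD (methyl-CpG-binding) domain, and ΔCC the coiled coil. The labels give WT and GFP as names alone, taken here as full-length MBD3 and as the control without MBD3. The sources used here do not say how these proteins were expressed, at what level, or whether a culture was 1 clone. Each group had 1 library, so differences below are between single libraries, without replicates or p-values. An input library from cells labelled EBRTcH3 was not analysed here.

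Hox genes encode homeodomain transcription factors that give cells their position along the body axis. Their order along the chromosome follows their order of expression, from the head end (low numbers) to the tail end and the distal limb (high numbers). In ESCs the clusters are silent and are textbook sites of PRC2, which methylates lysine 27 of histone H3. A peak table of this kind carries no RNA, so it says nothing of the activity of the genes.

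The libraries had 2986 peaks linked to genes in ΔMBD, 2243 in ΔCC, 2671 in WT and 1893 in GFP. Peak centres only are known, as signed distances from the start site with downstream positive. Read numbers, peak widths and peak heights are not in these tables, so depth and strength of binding are unknown. The ESC genes Pou5f1, Nanog, Sox2, Klf4 and Zfp42 had no linked peak in these libraries. Peaks of SUZ12 cannot check the cell type or the Mbd3 deletion.

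Promoter windows of 4 genes are shown, because these genes stand for the different patterns of listing: Hoxa10 was listed in every library, Hoxa13 in all but ΔMBD, Hoxa11 in ΔCC and GFP alone, and Hoxa7 in GFP alone. Each window runs from 250 bases before to 50 bases after a start site of RefSeq on build GRCm38.p6, 5′ to 3′ on the minus strand of chromosome 6, with CG dinucleotides in capitals. The windows are chr6:52234890-52235189 for Hoxa10, chr6:52260831-52261130 for Hoxa13, chr6:52245761-52246060 for Hoxa11 and chr6:52218524-52218823 for Hoxa7.
Hoxa10: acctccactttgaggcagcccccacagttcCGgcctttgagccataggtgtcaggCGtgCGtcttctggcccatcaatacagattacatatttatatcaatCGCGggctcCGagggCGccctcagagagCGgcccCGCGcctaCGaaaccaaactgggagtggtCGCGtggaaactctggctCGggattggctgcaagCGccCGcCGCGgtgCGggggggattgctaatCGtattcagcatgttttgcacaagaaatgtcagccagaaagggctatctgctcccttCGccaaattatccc
Hoxa13: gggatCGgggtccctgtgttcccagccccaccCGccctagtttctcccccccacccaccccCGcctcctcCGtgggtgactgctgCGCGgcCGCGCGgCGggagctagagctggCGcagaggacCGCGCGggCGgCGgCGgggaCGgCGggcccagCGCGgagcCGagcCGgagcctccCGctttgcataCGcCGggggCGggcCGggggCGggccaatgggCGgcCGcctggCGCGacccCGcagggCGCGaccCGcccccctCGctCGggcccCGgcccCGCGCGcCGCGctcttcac
Hoxa11: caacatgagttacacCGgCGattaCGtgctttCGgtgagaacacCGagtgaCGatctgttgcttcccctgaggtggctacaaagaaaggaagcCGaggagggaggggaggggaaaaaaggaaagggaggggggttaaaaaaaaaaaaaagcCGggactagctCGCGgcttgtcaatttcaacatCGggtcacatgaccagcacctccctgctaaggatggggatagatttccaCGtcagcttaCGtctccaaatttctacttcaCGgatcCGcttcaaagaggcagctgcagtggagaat
Hoxa7: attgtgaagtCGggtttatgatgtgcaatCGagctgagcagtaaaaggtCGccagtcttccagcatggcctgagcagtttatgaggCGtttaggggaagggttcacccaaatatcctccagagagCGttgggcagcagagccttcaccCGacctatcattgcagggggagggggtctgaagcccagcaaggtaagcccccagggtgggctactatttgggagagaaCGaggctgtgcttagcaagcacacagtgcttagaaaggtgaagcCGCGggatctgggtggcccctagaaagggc
PRC2 sites in ESCs commonly lie in regions rich in CG dinucleotides. The Hoxa13 window held 45 of them, as many as or more than 98.4% of the 32851 promoter windows of the table, whose median was 7. The Hoxa10 window held 21, the Hoxa11 window 15 and the Hoxa7 window 9. Over the 8 genes that matched the table, all but Hoxa4, the windows held 9 to 45, and none was below the median of all promoters. The number did not follow the listing in these genes: Hoxa2, listed in every library, had 9 as did Hoxa7, while Hoxa5 with 29 and Hoxa6 with 26 were missing from WT. G+C made up 81% of the Hoxa13 window and 45.7% of the Hoxa2 window, against a median of 52.7% over all windows.

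**Figure D1:**
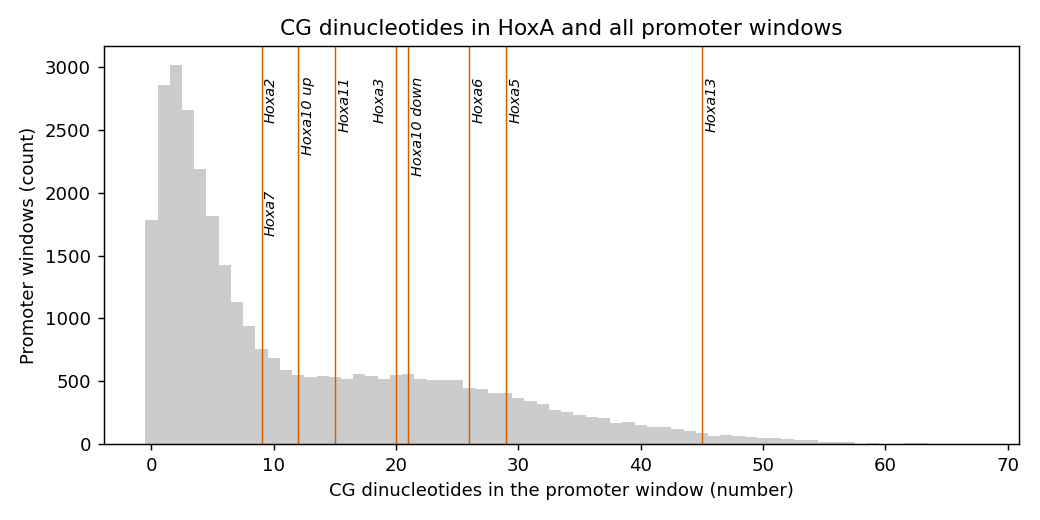
Number of CG dinucleotides in the promoter windows of 8 HoxA genes (vertical lines; Hoxa10 has an upstream and a downstream start) over the histogram of all 32851 promoter windows (grey bars, count on the y axis). The HoxA windows lie between 9 and 45, all above the median of 7.

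Short motifs, none contained in another, were read on both strands. GAGAG was found in 6 of the 9 HoxA windows (Hoxa10 has 2 start sites), against 62% of all windows. CCAAT was found in 5 of 9, against 37.4% of all windows. AGGTCA, an element of retinoid receptor sites, was found in 1 window, that of Hoxa5, against 16.3% of all windows. None of the peak centres fell inside a stretch of this length around the start site used by the peak tables: the closest lay 671 bp from the Hoxa13 start, in WT.

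The 9 HoxA genes were listed least in WT and most in GFP. Of these, 5 were listed in ΔMBD, 7 in ΔCC, 4 in WT and 9 in GFP. Of all 1935 listed genes, 86.7% were listed in ΔMBD, 63.1% in ΔCC, 86.0% in WT and 54.3% in GFP, so the order of the libraries over all genes was nearly the reverse of that at the 9 genes. The genes carried 9 distinct peaks in ΔMBD, 15 in ΔCC, 7 in WT and 18 in GFP. These were 0.301% of the linked peaks of ΔMBD (exact 95% binomial interval 0.138 to 0.571), 0.669% of ΔCC (0.375 to 1.1), 0.262% of WT (0.105 to 0.539) and 0.951% of GFP (0.564 to 1.5). Hoxa3 and Hoxa7 entered the 9 through GFP peaks alone, which adds to the GFP counts of genes and peaks and to the GFP share. Apart from them, GFP listed the same genes as ΔCC. The lead of GFP over ΔCC in genes listed thus rests on Hoxa3 and Hoxa7, and the intervals are not a test between libraries. With peaks centred within 1000 bp alone, 2 HoxA genes were listed in ΔMBD, 2 in ΔCC, 3 in WT and 3 in GFP, so the order of the libraries rests on centres farther from the start sites. Shares over all listed genes were not computed at 1000 bp. The intervals cover counting error over peaks only, treat neighbouring peaks as independent, and leave out the spread between cultures.

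**Figure D2:**
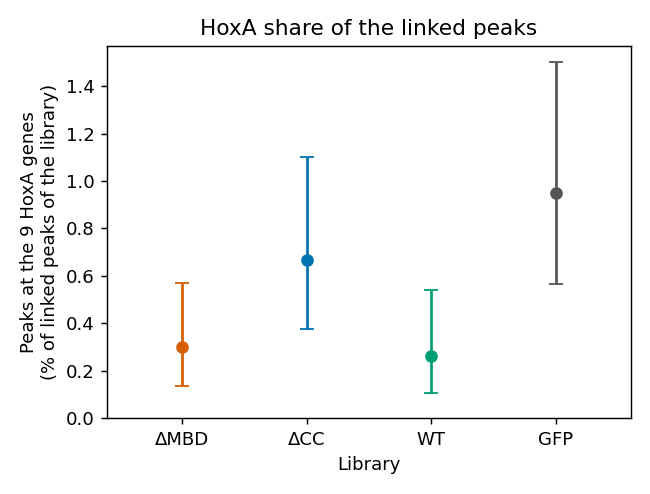
Peaks linked to the 9 HoxA genes as a percentage of all linked peaks of each library (points), with exact 95% binomial intervals (bars). The share is 0.301% in ΔMBD, 0.669% in ΔCC, 0.262% in WT and 0.951% in GFP.

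Between pairs of libraries, the listings of the 9 genes within 5000 bp were nested but for Hoxa13. Within 1000 bp they were not, since GFP then lacked Hoxa4 and Hoxa10. ΔMBD then listed Hoxa10 without Hoxa13, and ΔCC Hoxa13 without Hoxa10. Hoxa5 and Hoxa6 were listed in ΔMBD and not in WT, where 9.30% of all listed genes did the same, and Hoxa13 was in WT and not in ΔMBD (8.63% of all). Hoxa5, Hoxa6 and Hoxa11 were listed in ΔCC and not in WT (6.41% of all), and none of the 9 was in WT and missing from ΔCC (29.3% of all). Hoxa11 and Hoxa13 were in ΔCC and not in ΔMBD (5.63% of all), with none of the 9 the other way (29.2% of all). GFP listed all 9, so none of them could be in another library and missing from GFP. Of all listed genes, 35.6% were in ΔMBD and not in GFP, 13.1% in ΔCC and not in GFP, and 35.4% in WT and not in GFP. The genes in GFP alone of each pair were 4 against ΔMBD (3.26% of all), 2 against ΔCC (4.29%) and 5 against WT (3.72%). Hoxa3 and Hoxa7 were listed from the same GFP peaks, and Hoxa6 from a peak shared with Hoxa5, so the genes counted here are not independent. Membership used these same tables, so these counts describe the 9 genes and support no statement beyond them.

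**Figure D3:**
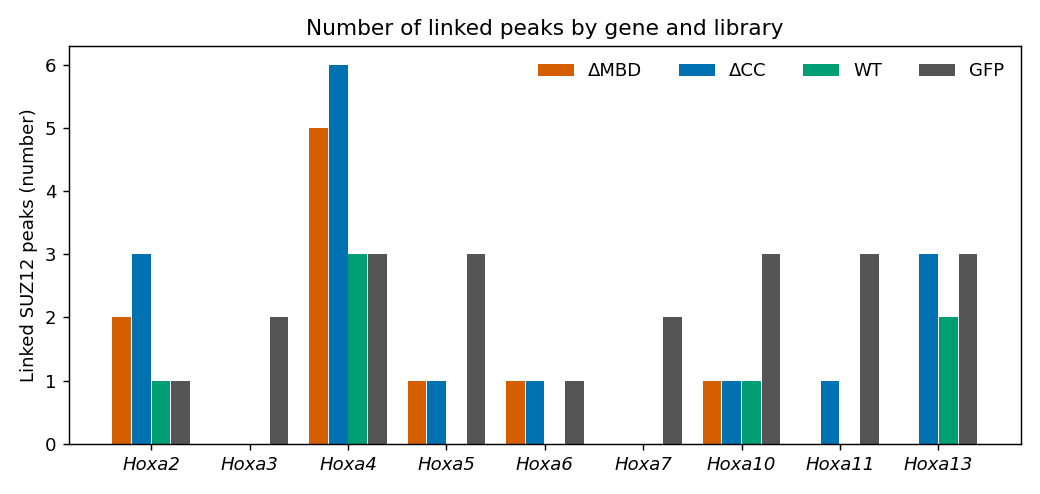
Number of linked SUZ12 peaks (y axis) at each of the 9 HoxA genes (x axis) in the ΔMBD, ΔCC, WT and GFP libraries. Hoxa4 has the most peaks in ΔMBD (5) and ΔCC (6), and Hoxa3 and Hoxa7 have peaks in GFP alone.

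At the head end of the cluster, Hoxa2 and Hoxa4 were listed in every library. Hoxa2 patterns the hindbrain and the second pharyngeal arch. Its peaks were centred at -2979 and 4162 bp in ΔMBD, at 3228, 4057 and 4572 bp in ΔCC, at 4127 bp in WT and at -2948 bp in GFP. Centres between 4057 and 4162 bp downstream were thus found in ΔMBD, ΔCC and WT and not in GFP, and an upstream centre in ΔMBD and GFP and not in the others. The ΔMBD and GFP upstream centres were 31 bp apart. In GFP the preceding peak, number 2275, was at Npy, a neuropeptide gene outside the cluster, while number 2276 was the upstream Hoxa2 peak. If peak numbers follow position along the chromosome, no GFP peak was centred on the downstream side of Hoxa2 at this end of the cluster.

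Hoxa4, which patterns the cervical vertebrae, had the most peaks of the 9 genes in ΔMBD, ΔCC and WT. Its centres lay at -3820, -3046, -1337, 890 and 4166 bp in ΔMBD. In ΔCC they lay at -4766, -3981, -3071, -2078, 847 and 4155 bp. In WT they lay at -4828, 892 and 4004 bp, and in GFP at -3799, 1448 and 4239 bp. A centre between 847 and 892 bp downstream was common to ΔMBD, ΔCC and WT, within 45 bp, and the nearest GFP centre was 556 bp or more farther on. The centre between 4004 and 4239 bp downstream was present in all 4 libraries. The upstream side differed in number: 3 centres in ΔMBD, 4 in ΔCC, 1 in WT and 1 in GFP. With widths unknown, 1 broad peak and several narrow ones over the same stretch cannot be told apart.

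**Figure D4:**
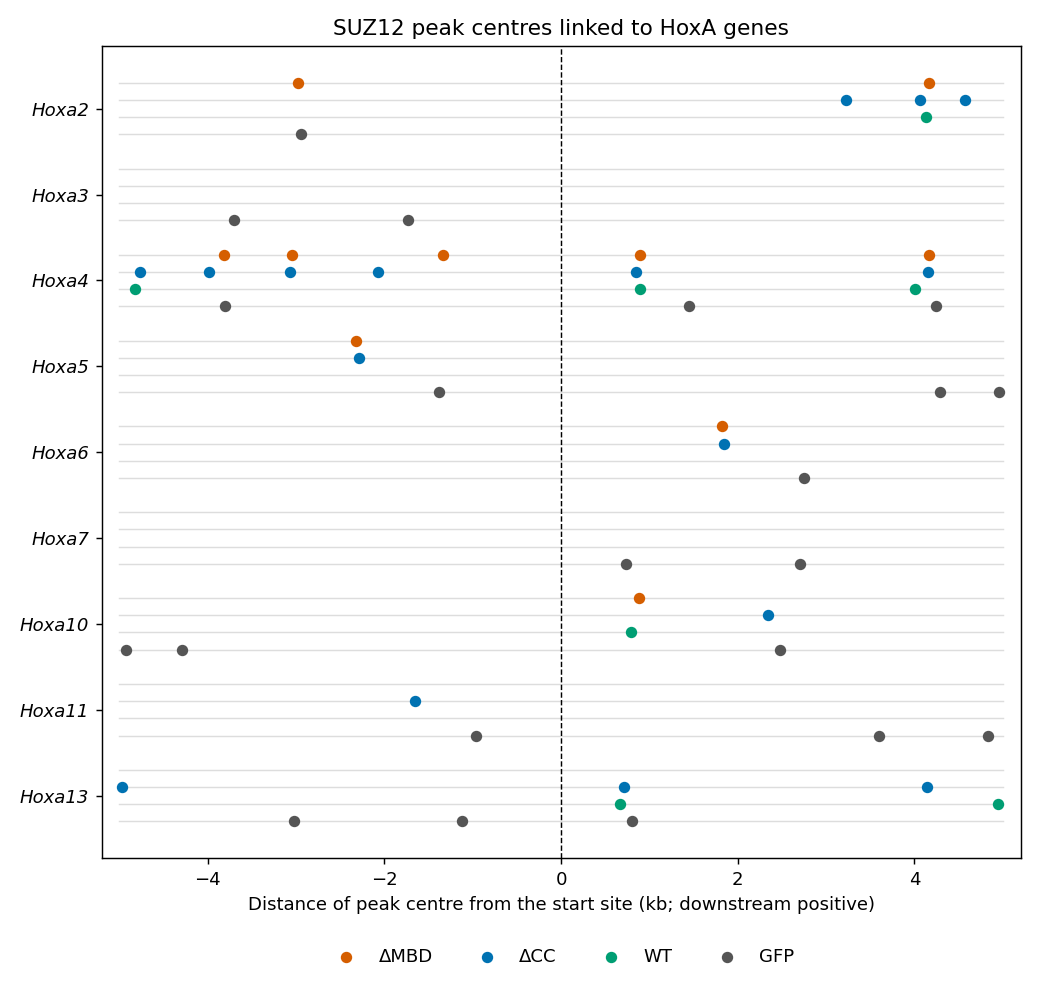
Centres of the SUZ12 peaks linked to each of the 9 HoxA genes, as distance from its start site in kb (x axis, dashed line at the start site), with 1 line per library in the order ΔMBD, ΔCC, WT and GFP from the top. Each point is 1 peak; Hoxa3 and Hoxa7 have points on the GFP line alone, and the Hoxa10 points of ΔMBD and WT lie closer to the start than those of ΔCC and GFP.

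In the middle of the cluster, Hoxa5 and Hoxa6 were listed in every library but WT. Hoxa5 is required for lung and cervicothoracic development, and Hoxa6 is expressed in the thoracic region. Hoxa6 had no peak of its own: its single peak in ΔMBD, ΔCC and GFP was also linked to Hoxa5. The listings of these genes in ΔMBD and in ΔCC are thus 1 observation in each library, while in GFP Hoxa5 also had peaks not linked to Hoxa6. That peak was centred at -2319 bp from Hoxa5 in ΔMBD, at -2292 bp in ΔCC and at -1385 bp in GFP. The ΔMBD and ΔCC centres were 27 bp apart, and the GFP centre lay 934 bp from that of ΔMBD and 907 bp from that of ΔCC. GFP had 2 further peaks downstream of Hoxa5, at 4285 and 4959 bp, with no peak linked to the gene near them in ΔMBD, ΔCC or WT.

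Hoxa3 and Hoxa7 were listed in GFP alone, from the same 2 peaks. Hoxa3 is needed for the thymus and parathyroid, and Hoxa7 patterns thoracic vertebrae. The GFP centres lay at 733 and 2705 bp from Hoxa7, and the same centres lay at -3705 and -1733 bp from Hoxa3. By these distances, the Hoxa3 start that was used lies 4438 bp on the downstream side of the Hoxa7 start, far from the Hoxa3 coding exons, which lie between Hoxa2 and Hoxa4. The listing of Hoxa3 thus reports on the stretch next to Hoxa7. In RefSeq (GRCm38.p6) the same spacing is 5506 bp, and that of Hoxa5 and Hoxa6 is 4085 bp against 4135 bp in the tables. The gaps of 1068 bp and 50 bp do not show which start of each pair differs, so whether the printed Hoxa7 window lies at the start used for its distances is unknown.

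At the tail end, Hoxa10 was listed in every library. Hoxa10 acts in the lumbar skeleton and the uterus. Its peaks were centred at 880 bp in ΔMBD, at 2342 bp in ΔCC, at 794 bp in WT and at -4926, -4295 and 2481 bp in GFP. The ΔMBD and WT centres were 86 bp apart and the ΔCC centre and the GFP downstream centre 139 bp apart, while the distances between these pairs were over 1 kb. Number order in GFP sets the Hoxa10 and Hoxa11 starts at least 9761 bp apart, a minimum that the downstream RefSeq start of Hoxa10 meets, at 10871 bp from Hoxa11, and the upstream start, at 4956 bp, does not. The window printed for Hoxa10 is that of the downstream start.

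Hoxa11, which shapes the forearm and the uterus, was listed in ΔCC and GFP alone. Its peak was centred at -1653 bp in ΔCC, and its GFP peaks at -963, 3597 and 4835 bp. The upstream centres of ΔCC and GFP were 690 bp apart, and the downstream centres of GFP had no ΔCC partner within 1 kb. Hoxa13, needed for the digits and the genital tract, was listed in every library but ΔMBD. It had centres at -4974, 717 and 4140 bp in ΔCC, at 671 and 4949 bp in WT and at -3026, -1120 and 802 bp in GFP. The centre between 671 and 802 bp downstream was common to ΔCC, WT and GFP. The farther downstream centres of ΔCC and WT were 809 bp apart. The upstream centres of ΔCC and GFP differed, and WT had no upstream centre.

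The numbers given to the peaks add information on peaks that were linked to no gene. Numbers ran in order of distance at every one of the 9 genes with several peaks, in all 4 libraries, and at 912 of 913 such genes over the whole ΔMBD table, 634 of 634 in ΔCC, 753 of 753 in WT and 552 of 552 in GFP. With Hoxa3 left aside, they also never fell from a listed gene to the next one between Hoxa2 and Evx1, a homeobox gene beyond Hoxa13. A number missing from the table therefore stands for a peak centred between its neighbours, on the condition that numbers follow position throughout.

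Between the last Hoxa4 peak and the first Hoxa10 peak there were 2 numbers in ΔMBD, 2 in ΔCC, 0 in WT and 6 in GFP. In WT, number 3179 was at Hoxa4, -4828 bp, and number 3180 at Hoxa10, 794 bp. On the condition above, no WT peak was centred between these positions, a stretch that holds the starts of Hoxa5, Hoxa6, Hoxa7 and Hoxa9. Number 3181 followed at Hoxa13, 4949 bp, so none was centred at Hoxa11 in WT either. On that condition, WT had no unlinked peak centred at these genes. A broad WT peak with its centre elsewhere could still cover them, since widths are unknown.

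Hoxa9, a gene of the posterior body axis between Hoxa7 and Hoxa10, was listed in no library. Consecutive numbers spanned it in all 4: 3544 at Hoxa6 and 3545 at Hoxa10 in ΔMBD, 2815 and 2816 at the same genes in ΔCC, and 2288 at Hoxa7 and 2289 at Hoxa10 in GFP, beside 3179 and 3180 in WT. If numbers follow position here too, no centre in any library lay between those peaks.

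Beyond Hoxa10, up to Evx1, there were 7 numbers in ΔMBD, 10 in ΔCC, 10 in WT and 12 in GFP. In ΔMBD none of the 7 was linked to a gene, so peaks were centred between Hoxa10 and Evx1 in that library too, but none was linked to Hoxa11 or Hoxa13. In ΔCC 4 of the 10 were linked, in WT 2 of 10 and in GFP 6 of 12. Past the last Hoxa13 peak and before Evx1 lay 4 numbers in ΔCC, 8 in WT and 4 in GFP. Between Hoxa2 and Hoxa4 there were 4 numbers in ΔMBD, 6 in ΔCC, 3 in WT and 3 in GFP. Of these, 1 in ΔMBD, 1 in ΔCC, 1 in WT and 2 in GFP were linked to 5730596B20Rik, a long noncoding RNA gene inside the cluster that was named here after its values were seen.

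**Figure D5:**
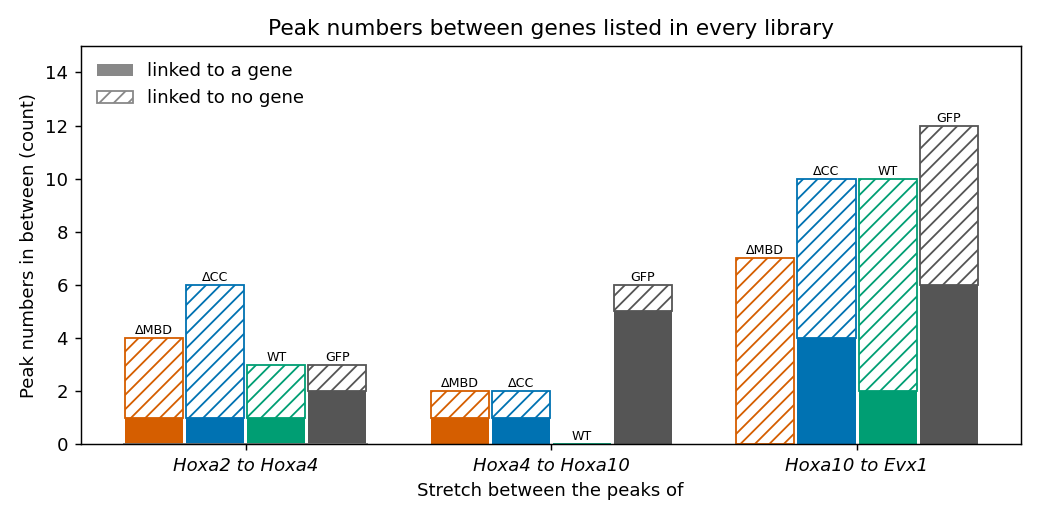
Peak numbers (y axis, count) between the peaks of genes listed in every library, for the ΔMBD, ΔCC, WT and GFP libraries; filled parts are peaks linked to a gene and hatched parts are numbers linked to no gene. Between Hoxa4 and Hoxa10 the counts are 2, 2, 0 and 6 in that order of libraries. Each stretch ends at peaks of the library itself, so its extent differs between libraries.

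Over the whole stretch from the last Hoxa2 peak to the first Evx1 peak, 19 numbers lay in ΔMBD, 25 in ΔCC, 17 in WT and 27 in GFP. As for the shorter stretches, the ends were peaks of each library, so the extent differed. The last Hoxa2 peak lay at -2979 bp in ΔMBD, 3228 bp in ΔCC, 4127 bp in WT and -2948 bp in GFP. The first Evx1 peak lay at 2681, -4302, 2664 and -2106 bp in the same order. These totals followed the order of the linked peaks, with a narrower range, but they contain the linked peaks, so that order is partly built in. Numbers linked to no gene were 11 in ΔMBD, 12 in ΔCC, 10 in WT and 8 in GFP. Taken alone, the unlinked numbers were thus fewest in GFP and did not follow the order of the linked peaks. Evx1 itself was listed in every library, with 1 peak in ΔMBD, 5 in ΔCC, 1 in WT and 2 in GFP. The other flanking genes, Skap2 and Hibadh, were listed in none.

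Centres were also compared across libraries at the same gene, within 1000 bp. For ΔMBD and WT, 4 of 9 ΔMBD peaks and 4 of 7 WT peaks had a partner, against 72.2% and 77.2% of all linked peaks of these libraries. For ΔCC and WT, 9 of 15 ΔCC peaks and 6 of 7 WT peaks had a partner, against 66.4% and 52.0% of all. For WT and GFP, 3 of 7 WT peaks and 3 of 18 GFP peaks had a partner, against 43.5% and 65.9% of all. Between the mutant forms, 7 of 9 ΔMBD peaks had a ΔCC partner and 10 of 15 ΔCC peaks a ΔMBD partner, against 50% and 68% of all. HoxA peaks of ΔMBD thus had partners in ΔCC more often than in WT, the reverse of ΔMBD peaks at large. The number of peaks open to a match differed in the same way: 15 in ΔCC and 7 in WT at HoxA, against 2243 and 2671 over all linked peaks. The ΔMBD peak at Hoxa5 and Hoxa6 could have no WT partner, since WT listed neither gene. Whether these account for the reversal was not tested. With GFP, partners were found for 6 of 9 ΔMBD peaks and 9 of 15 ΔCC peaks, against 41.3% and 63.8% of all. In the other direction, 5 of 18 GFP peaks had a ΔMBD partner and 7 of 18 a ΔCC partner, against 67.5% and 73.6% of all. The GFP peaks at HoxA were thus matched less often than GFP peaks at large in each of the 3 other libraries, which is a description of a few neighbouring peaks with no test. Part of this was fixed by the selection. The 2 GFP peaks at Hoxa3 and Hoxa7 could have no partner, since no other library listed these genes.

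A smaller part of the HoxA peaks than of all linked peaks was centred close to a start site in each library, on few peaks and with no test. Within 1 kb of the closest HoxA start lay 2 of 9 peaks in ΔMBD, 2 of 15 in ΔCC, 3 of 7 in WT and 3 of 18 in GFP. Over all linked peaks, measured instead from the closest start of any linked gene, the shares were 49.3% in ΔMBD, 47.1% in ΔCC, 52.6% in WT and 46.2% in GFP. Centres at or downstream of the closest HoxA start numbered 5 of 9 in ΔMBD, 9 of 15 in ΔCC, 6 of 7 in WT and 9 of 18 in GFP, against 66.5% to 69.3% of all linked peaks. That range, too, was measured from the closest start of any linked gene. A listed HoxA gene had 2 peaks on average in ΔMBD, 2.29 in ΔCC, 1.75 in WT and 2.33 in GFP, beside 1.83, 1.91, 1.65 and 1.86 over all listed genes in the same order.

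The pattern over the 4 libraries that each gene showed was set beside all listed genes. Hoxa2, Hoxa4 and Hoxa10 were listed in every library, as were 46.5% of the 1935 genes; those with the most peaks outside the Hox clusters were Ebf1, Dmbx1 and Sfmbt2. The pattern of Hoxa5 and Hoxa6, missing from WT alone, was shown by 21 genes (1.09%), of which 7 were Hox genes. Outside the clusters it was led by Bcor, which encodes a corepressor found in Polycomb complexes, with 2 peaks in ΔMBD, 6 in ΔCC, 0 in WT and 2 in GFP, then Gm9979 and Dlx1. The pattern of Hoxa13, missing from ΔMBD alone, was shown by 13 genes (0.672%), of which 4 were Hox genes, and was led elsewhere by Msi1, Crtc3 and Gpr37. That of Hoxa11, in ΔCC and GFP alone, was shown by 34 genes (1.76%), of which 7 were Hox genes, and was led elsewhere by the interferon zeta genes Gm13275, Gm13283 and Ifnz, near-identical copies whose peaks are uncertain. Listing in GFP alone, as for Hoxa3 and Hoxa7, was shown by 10 genes (0.517%), 2 of them Hox genes; the others first in the alphabet, with 1 peak each, were 1700001O22Rik, 6430503K07Rik and 9030612E09Rik.

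In each of the other Hox clusters, too, ΔCC and GFP had more distinct peaks than ΔMBD and WT. HoxB had 18 peaks in ΔMBD, 29 in ΔCC, 15 in WT and 31 in GFP. HoxC had 16, 39, 18 and 41, and HoxD 6, 17, 7 and 17, in the same order of libraries.

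Genes that act with Hox proteins or upstream of Hox genes were counted in the same way. Of 9 genes for the Hox cofactors of the Pbx, Meis and Pknox families, 3 were listed in ΔMBD, 2 in ΔCC, 3 in WT and 2 in GFP. Meis1 and Meis2 were in every library. Pbx3 had 2 peaks in ΔMBD and 1 in WT and was missing from ΔCC and GFP. Of 13 genes for retinoic acid signalling and the Cdx factors, which set Hox expression in the embryo, 7 were listed in ΔMBD, 6 in ΔCC, 6 in WT and 6 in GFP. Cyp26a1, Cyp26b1 and Cyp26c1, which encode enzymes that degrade retinoic acid, were in every library, as were Aldh1a2, Crabp1 and Cdx2, and Cdx4 was in ΔMBD alone with 1 peak.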

How the data were processed

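SUZ12 ChIP-seq libraries of 4 cultures (single-end 75-base reads, NextSeq 500, per the labels' protocols) were analysed from the authors' peak tables. Tools named in the submitters' processing notes are MACS2 and bcl2fastq 2.18.0.12, with mm9 as the build. Not given in the sources used here are the aligner, how MACS2 was set, and whether the input served as control. Per the file headers, the authors linked the peaks of each library to genes with GREAT 3.0.0 (2 nearest genes, 5000 bp at most, curated regulatory domains added). The only values in the deposited tables are signed distances in bp from the start site, so no read depth is known. A gene was counted as listed with at least 1 linked peak within 5000 bp, a peak linked to 2 genes counted once, and centres within 1000 bp at the same gene were called partners. Of the 1942 symbols, 1833 matched RefSeq (GRCm38.p6) and 59 matched a synonym. Promoter sequences are RefSeq's. Intervals are exact 95% binomial (Clopper-Pearson) intervals from SciPy 1.17.1 under Python 3.11.15, with figures by matplotlib 3.10.9. The matching code was tested on simulated data. No statistical test between libraries was run, since each group had 1 library.

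The genes and lists were chosen with earlier results of these data known. The text names all 9 genes, their neighbours, the 3 genes outside the Hox clusters with the most peaks for each pattern of listing, and examples of the other lists; some genes that these rules name are not reported here. Alternatives were windows of 1000 and 2500 bp, all deposited pairs, at least 2 peaks, partners within 500 or 2000 bp, and, chosen after seeing the data, shared peaks kept at the closer gene.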

Additional observations from a re-analysis of the deposited data

How the results depend on the processing

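Of the 86 values recomputed, 59 stayed within 1.5 times. Of these 59, 14 came from all deposited pairs and could not move, since no pair of these genes lay beyond 5000 bp. With peaks within 1000 bp of a start site, HoxA genes listed numbered 2 in ΔMBD, 2 in ΔCC, 3 in WT and 3 in GFP, on 2, 2, 3 and 3 distinct peaks in the same order, so the order of the libraries at 5000 bp did not hold. The listing then differed at 1 gene between ΔMBD and WT, at 1 between ΔCC and WT and at 2 between ΔMBD and ΔCC. Against GFP it differed at 5 genes for ΔMBD, 3 for ΔCC and 4 for WT. GFP then listed Hoxa7, Hoxa11 and Hoxa13 without Hoxa4, which the other libraries listed. ΔMBD listed Hoxa10 without Hoxa13 and ΔCC the reverse, so the listings were not nested. With 2500 bp the distinct peaks numbered 4 in ΔMBD, 6 in ΔCC, 3 in WT and 8 in GFP, in the order seen at 5000 bp. Requiring at least 2 peaks left 2 genes in ΔMBD, 3 in ΔCC, 2 in WT and 7 in GFP. The listing then differed at 1 gene between ΔMBD and ΔCC, 7 between ΔMBD and GFP, 1 between ΔCC and WT and 6 between ΔCC and GFP. Shares over all listed genes were not computed under these alternatives, so whether the counts depart from genes at large is unknown. With shared peaks kept at the closer gene, ΔCC and GFP differed at 4 genes. Hoxa5 and Hoxa6 are among them only by assignment. Their shared peak was closer to Hoxa6 in ΔCC (1843 bp) and to Hoxa5 in GFP (-1385 bp), with centres 907 bp apart. Partners within 500 bp were found for 3 ΔMBD and 4 ΔCC peaks in GFP, and for 3 GFP peaks in ΔMBD and 4 in ΔCC. Partners within 2000 bp were found for 5 WT peaks in GFP and 6 GFP peaks in WT. All deposited pairs gave the values of the report. The causes were not tested. No paired analysis was possible because each group has 1 library. Peak centres without widths or heights limit all of these counts.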
